A study of Mus musculus with 12 samples.

Results

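A set of 7 genes that build or control major histocompatibility complex (MHC) class II is described here across all 12 arrays, among 19935 genes measured. They are H2-Ea, H2-Aa, H2-Ab1, H2-Eb1, H2-DMa, Cd74 and Ciita. Each was represented by 1 probe set that carried its symbol and no other. The set was named for its biology, but H2-Ea was chosen by its log2 values on these arrays, which depart from those of the other 6, so its values are given as a description and were not tested. The other 6 were tested between groups.

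The arrays were Affymetrix Mouse Gene 1.0 ST, hybridised with RNA from male mice whose labels name the source as colon epithelial cells. The groups were transgenic mice given dextran sodium sulfate (TG DSS), transgenic mice on water (TG water), wild-type littermates given dextran sodium sulfate (WT DSS) and wild-type littermates on water (WT water), with 3 arrays each. All mice were 8 to 10 weeks old. The transgene is Villin-Claudin-2, in which a villin promoter, active in the gut epithelium, drives the tight junction protein claudin-2, and dextran sodium sulfate, which injures the colon lining, was given at 4% w/v in the drinking water for 10 days. The labels give neither a strain nor an H2 haplotype, and they do not say whether an array held 1 animal or a pool.

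MHC class II molecules are pairs of an alpha and a beta chain that carry peptides to the cell surface for CD4 T cells. In mice H2-Aa and H2-Ab1 encode the chains of the I-A molecule, and H2-Ea and H2-Eb1 those of the I-E molecule. Cd74 encodes the invariant chain that guides new class II molecules to the endosome, H2-DMa encodes a chain of the H2-DM molecule that exchanges peptides there, and Ciita encodes the transactivator that class II transcription needs. B cells, dendritic cells and macrophages make class II constantly, and gut epithelial cells make it after interferon gamma. Mice of the H2-b haplotype, such as C57BL/6, carry a deletion at the start of H2-Ea and do not make its product.

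In the RefSeq annotation of GRCm38.p6, which is built on C57BL/6J, H2-Ea is listed as a transcribed pseudogene at chr17:34341952-34344645. The other chain genes lie before it on the same chromosome, H2-Ab1 at chr17:34263227-34269418, H2-Aa at chr17:34282744-34287823 and H2-Eb1 at chr17:34305867-34316674. H2-DMa lies at chr17:34119693-34139101, and Ciita and Cd74 lie on other chromosomes. Class II promoters share an X box and a Y box, which are bound by the complex that recruits the Ciita protein. The 150 bases before a start of H2-Aa, H2-Eb1 and the neighbouring H2-Eb2, a further beta chain gene, are shown. H2-Aa and H2-Eb1 moved together on these arrays, while H2-Eb2 did not always follow them. The H2-Eb2 stretch precedes a start inside the annotated span of that gene, chr17:34325503-34341410. It is therefore not the sequence before that span. Capitals mark the Y box letters TGATTGG and the X box letters AACNGATG, which were searched on both strands and do not overlap here.
H2-Aa (GRCm38.p6, chr17:34287824-34287973, minus strand): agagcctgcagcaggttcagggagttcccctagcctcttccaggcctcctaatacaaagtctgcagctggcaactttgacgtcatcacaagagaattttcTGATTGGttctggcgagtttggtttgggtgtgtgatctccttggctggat
H2-Eb1 (GRCm38.p6, chr17:34305717-34305866, plus strand): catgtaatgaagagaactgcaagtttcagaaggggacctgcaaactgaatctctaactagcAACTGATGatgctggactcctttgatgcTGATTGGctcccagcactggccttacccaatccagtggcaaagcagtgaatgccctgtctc
H2-Eb2 (GRCm38.p6, chr17:34325525-34325674, plus strand): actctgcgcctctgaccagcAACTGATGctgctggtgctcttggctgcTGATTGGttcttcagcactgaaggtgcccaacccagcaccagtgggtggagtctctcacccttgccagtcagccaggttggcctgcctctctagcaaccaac

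RefSeq promoter windows, which run from 250 bases before to 50 bases after a start, were available for 3 of the 7 genes. These were H2-Aa, H2-Eb1 and H2-DMa. The Y box letters stood in 7.82% and the X box letters in 2.32% of the 32851 windows of the genome, and 0.186% held both. H2-Eb1 held both, with the X box letters at -89 and the Y box letters at -61 from the start. H2-Aa held the Y box letters at -50. The windows of H2-DMa, at chr17:34122582-34122881 and chr17:34125268-34125567, held neither set of letters. Both lie inside the annotated span of H2-DMa, so the bases before that span were not searched. Among the other class II genes, H2-Eb2, H2-DMb1 and H2-DMb2 held both, and H2-Oa and H2-Ob held only the Y box letters. Only these exact letters were searched, so a window without them may still hold an X box or Y box of other letters.

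All values below are log2 values relative to the median of the probe set over the 12 arrays, which is how the deposited table was centred, so they compare arrays and say nothing of how strongly a gene is expressed. H2-Ea was at 1.08, -0.47 and -1.63 in TG DSS replicates 1 to 3 and at 0.07, -0.51 and 1.19 in TG water replicates 1 to 3. It was at 0.69, -0.07 and -3.70 in WT DSS replicates 1 to 3 and at -3.62, 0.57 and 0.49 in WT water replicates 1 to 3. WT DSS replicate 3 and WT water replicate 1 were 13.0-fold and 12.3-fold below the median, and each lay far from the other arrays of its own group, by 3.63 and 4.11 log2 units from the nearest. The low values fell on 1 wild-type array given DSS and 1 wild-type array on water. The span of H2-Ea over the arrays was 4.89 log2 units, and 57 of the 19935 genes had a wider one.

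**Figure D1:**
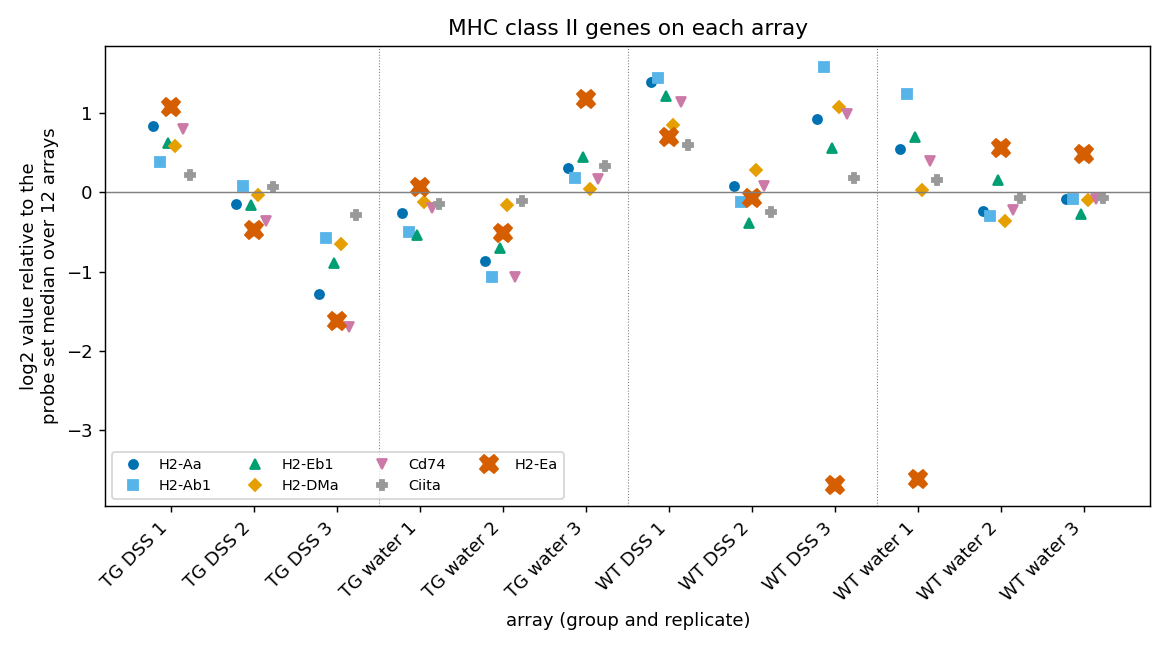
Log2 value of each of the 7 class II genes on each of the 12 arrays (points, 1 per gene and array), relative to the probe set median, with arrays ordered by group. H2-Ea (crosses) lies at -3.70 in WT DSS replicate 3 and -3.62 in WT water replicate 1, while the other 6 genes lie above 0 on both arrays.

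H2-Eb1, the partner chain of H2-Ea in the I-E molecule, did not share these values. H2-Eb1 was at 0.62, -0.16 and -0.89 in TG DSS replicates 1 to 3 and at -0.54, -0.70 and 0.44 in TG water replicates 1 to 3. It was at 1.22, -0.39 and 0.57 in WT DSS replicates 1 to 3 and at 0.70, 0.16 and -0.27 in WT water replicates 1 to 3. On WT DSS replicate 3 and WT water replicate 1, where H2-Ea was lowest, H2-Eb1 was above its median.

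The I-A chains followed H2-Eb1 in most arrays. H2-Aa was at 0.84, -0.14 and -1.28 in TG DSS replicates 1 to 3 and at -0.27, -0.87 and 0.31 in TG water replicates 1 to 3, against 1.40, 0.08 and 0.93 in WT DSS replicates 1 to 3 and 0.55, -0.23 and -0.08 in WT water replicates 1 to 3. H2-Ab1, the I-A beta chain, was at 0.39, 0.08 and -0.58 in TG DSS replicates 1 to 3 and at -0.50, -1.07 and 0.18 in TG water replicates 1 to 3, against 1.44, -0.12 and 1.59 in WT DSS replicates 1 to 3 and 1.24, -0.29 and -0.08 in WT water replicates 1 to 3. The H2-Ab1 values of WT DSS replicate 3 and WT water replicate 1 were among its 3 highest, on the same arrays where H2-Ea was lowest.

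The genes of the invariant chain, of peptide exchange and of the transactivator gave the same order of arrays within TG DSS. Cd74 was at 0.80, -0.36 and -1.71 in TG DSS replicates 1 to 3 and at -0.20, -1.07 and 0.17 in TG water replicates 1 to 3, against 1.14, 0.08 and 0.98 in WT DSS replicates 1 to 3 and 0.39, -0.22 and -0.08 in WT water replicates 1 to 3. H2-DMa was at 0.58, -0.03 and -0.66 in TG DSS replicates 1 to 3 and at -0.13, -0.16 and 0.05 in TG water replicates 1 to 3, against 0.86, 0.28 and 1.08 in WT DSS replicates 1 to 3 and 0.03, -0.36 and -0.10 in WT water replicates 1 to 3. Within TG DSS, replicate 1 was high and replicate 3 low for all 7 genes. Ciita moved least, with a span of 0.89 log2 units against 1.74 to 2.85 for the other 5 tested genes. Ciita was at 0.22, 0.07 and -0.28 in TG DSS replicates 1 to 3 and at -0.15, -0.11 and 0.34 in TG water replicates 1 to 3, against 0.60, -0.25 and 0.18 in WT DSS replicates 1 to 3 and 0.16, -0.07 and -0.07 in WT water replicates 1 to 3. Its highest array was WT DSS replicate 1 and its lowest TG DSS replicate 3, as they were for Cd74, H2-Eb1 and H2-Aa.

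The 6 genes other than H2-Ea rose and fell together over the arrays. Pearson r between any 2 of them lay between 0.67 for H2-DMa with Ciita and 0.98 for H2-Aa with Cd74 over the 12 arrays, which span all 4 groups. All 6 were above 0 on TG DSS replicate 1, TG water replicate 3, WT DSS replicates 1 and 3 and WT water replicate 1, and none was above 0 on TG DSS replicate 3, TG water replicates 1 and 2 and WT water replicate 3. Their mean was at 0.58, -0.09 and -0.90 in TG DSS replicates 1 to 3, at -0.30, -0.66 and 0.25 in TG water replicates 1 to 3, at 1.11, -0.05 and 0.89 in WT DSS replicates 1 to 3 and at 0.51, -0.17 and -0.11 in WT water replicates 1 to 3. H2-Ea, whose values chose it, had r between -0.42 and 0.11 with these 6 over all 12 arrays. Over the 10 arrays that remain without the 2 farthest from its own median, WT DSS replicate 3 and WT water replicate 1, it had an r of 0.85 with Cd74, 0.79 with H2-Aa, 0.78 with H2-Eb1, 0.66 with Ciita, 0.62 with H2-DMa and 0.56 with H2-Ab1. Since these 2 arrays were left out for their H2-Ea values, the r of the 10 others is a description of those arrays alone. On TG DSS replicate 3, H2-Ea was at -1.63 beside a mean of -0.90 for the other 6.

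Set against that mean, H2-Ea differed by 0.50, -0.38 and -0.73 in TG DSS replicates 1 to 3 and by 0.37, 0.15 and 0.94 in TG water replicates 1 to 3. The difference was -0.42, -0.02 and -4.59 in WT DSS replicates 1 to 3 and -4.13, 0.74 and 0.60 in WT water replicates 1 to 3. On 10 arrays H2-Ea stayed within 1 log2 unit of the family mean. H2-Ab1 departed from the mean of the other 5 tested genes in the opposite direction on the same arrays, by 0.84 in WT DSS replicate 3 and 0.87 in WT water replicate 1. Its next largest departures were -0.49 in TG water replicate 2 and 0.40 in WT DSS replicate 1.

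**Figure D2:**
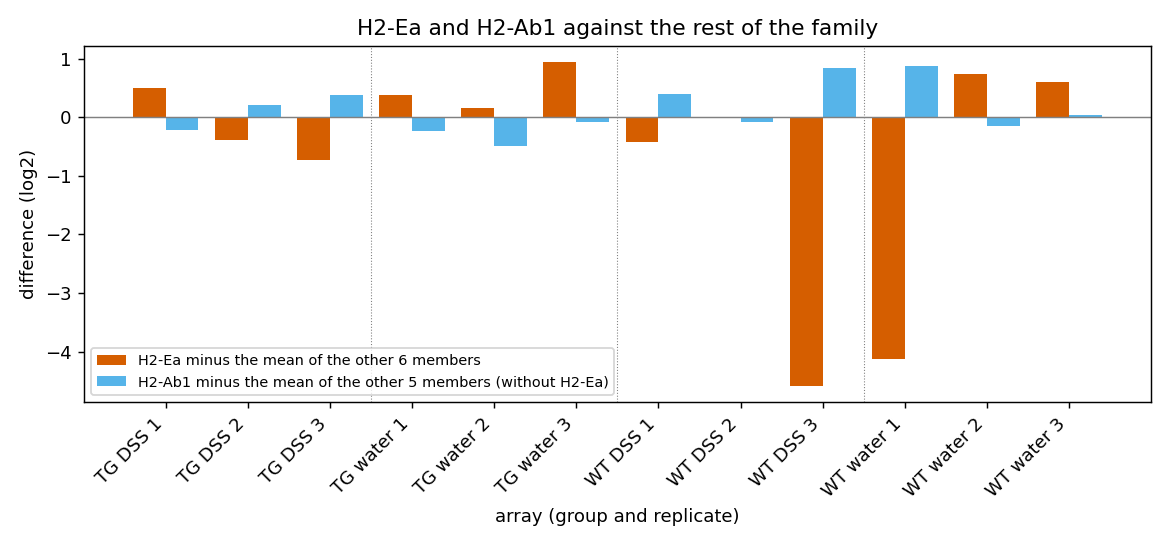
Difference on the log2 scale, per array, of H2-Ea from the mean of the other 6 class II genes and of H2-Ab1 from the mean of the other 5 without H2-Ea (bars, 1 array each). H2-Ea stands at -4.59 in WT DSS replicate 3 and -4.13 in WT water replicate 1, and H2-Ab1 at 0.84 and 0.87 on those arrays.

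Along chromosome 17, no gene beside H2-Ea shared its low values on those arrays. Of the 10 measured genes on each side, from H2-DMa to Agpat1, the lowest was H2-Ob at -0.55 in WT DSS replicate 3 and Btnl1 at -0.16 in WT water replicate 1. Some neighbours were high instead. Btnl5-ps, a butyrophilin-like pseudogene that starts 145 kb from the start of H2-Ea, was at 1.46 in WT DSS replicate 3 and 1.07 in WT water replicate 1, against -1.53 to 0.61 on the other arrays. Btnl2 and Btnl1, butyrophilin-like genes next to H2-Ea, were at 2.03 and 1.95 in WT DSS replicate 3 but at 0.04 and -0.16 in WT water replicate 1. Their high values were thus those of WT DSS replicate 3 and not of WT water replicate 1.

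**Figure D3:**
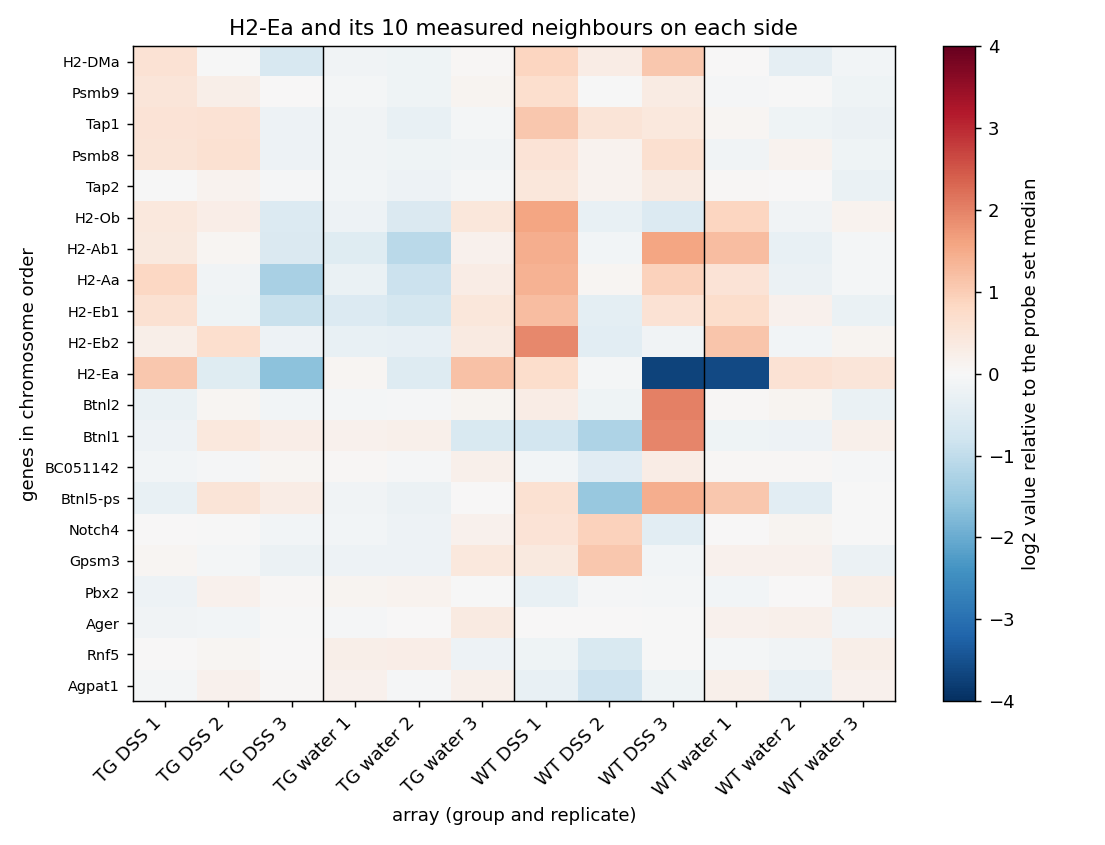
Log2 value relative to the probe set median (colour) of H2-Ea and the 10 measured genes on each side of it, in chromosome order, on each array. H2-Ea is the single row with values near -3.7, in WT DSS replicate 3 and WT water replicate 1, and its neighbour Btnl5-ps is at 1.46 and 1.07 there.

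Genes far from their medians were also counted over the H2 region, taken from H2-K2 to H2-M2 (chr17:33974659-37483554), which spans 157 measured genes. In WT water replicate 1, 9 of the 157 region genes (5.73%) lay more than 1 log2 unit from their median, against 32 of all 19935 genes (0.161%). Thus 28.1% of the far genes of that array were in the region. H2-Ea, for which this array is singled out, is among the 9 and counts in these shares. WT water replicates 2 and 3 each had 1 such region gene, and the TG water arrays had 1, 2 and 1. Under DSS the counts followed how far an array stood from the rest. They were 3, 0 and 2 region genes in TG DSS replicates 1 to 3 and 12, 24 and 15 in WT DSS replicates 1 to 3. These were 7.64%, 15.3% and 9.55% of the region genes on the WT DSS arrays, where 2.49%, 16.2% and 3.78% of all genes lay as far from their medians. The region share of WT DSS replicate 3 was therefore not the highest of its group, and WT DSS replicate 1 exceeded it relative to all genes. H2-Ea is also among the 15 far region genes of WT DSS replicate 3. WT DSS replicate 3 and WT water replicate 1 shared 5 far region genes in the same direction and 0 in opposite directions, and H2-Ea, for which these arrays are singled out, is 1 of the 5. WT DSS replicate 1 shared 4 in the same direction with WT DSS replicate 2 and 4 with WT DSS replicate 3. Over all genes, WT DSS replicate 3 and WT water replicate 1 shared 10 far genes in the same direction and 10 in opposite directions. The 5 shared region genes were H2-Ea and H2-Q4, which were low, and H2-Ab1, H2-Q2 and Btnl5-ps, which were high.

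H2-Q2 and H2-Q4 are class I genes of the Q group, and they are named here after their values were seen. H2-Q2 was at -0.50, 0.01 and 0.32 in TG DSS replicates 1 to 3, at -0.05, -0.21 and -0.03 in TG water replicates 1 to 3, at 0.99, 0.28 and 2.88 in WT DSS replicates 1 to 3 and at 1.51, -0.01 and -0.28 in WT water replicates 1 to 3. H2-Q4 was at -0.06, 0.46 and -0.67 in TG DSS replicates 1 to 3, at 0.12, 0.01 and -0.01 in TG water replicates 1 to 3, at -0.17, 0.30 and -1.04 in WT DSS replicates 1 to 3 and at -1.52, 0.31 and 0.06 in WT water replicates 1 to 3. WT DSS replicate 3 and WT water replicate 1 held the 2 highest values of H2-Q2 and the 2 lowest of H2-Q4. Whether these animals differ from the others in H2 haplotype, or in how well the probes match their alleles, was not tested.

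By likeness over the 12 arrays, H2-Q4 was also the gene whose pattern came closest to that of H2-Ea, with r of 0.84. The r was 0.34 without the 2 arrays farthest from the H2-Ea median. The next were Cks1b at 0.79, Hspa12a at 0.79, Glo1 at 0.78, Noc4l at 0.78, Padi4 at 0.78, Mis12 at 0.77, Mad1l1 at 0.76, Slpi at 0.76 and Srm at 0.76. Over the 10 remaining arrays these 9 had r between 0.27 for Mis12 and 0.69 for Padi4. Hspa12a was at 0.63, Srm at 0.52 and Slpi at 0.51. How far the likeness rested on WT DSS replicate 3 and WT water replicate 1 thus differed between the genes. Of these 10 genes, 2 lay on chromosome 17, H2-Q4 and Glo1, beside 4.71% of all genes. The 10 were ranked by the H2-Ea values that chose that gene, so this count is only a description. Glo1, the glyoxalase that clears methylglyoxal, had 2 probe sets and was at 0.21, -0.27 and -0.12 in TG DSS replicates 1 to 3, 0.14, 0.12 and 0.23 in TG water replicates 1 to 3, -0.42, -0.60 and -1.01 in WT DSS replicates 1 to 3 and -0.79, 0.16 and 0.27 in WT water replicates 1 to 3. It was low on all 3 WT DSS arrays and on WT water replicate 1.

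The mean of the other 6 genes was most like a different set. The closest were Ifit2 at r of 0.88, Acap1 at 0.87, Ero1a at 0.87, Ifit1 at 0.86, Ptk2b at 0.83, Spib at 0.82, Ikzf3 at 0.81, Kcng3 at 0.81 and Ptprcap at 0.81. Ifit1 and Ifit2 are interferon-induced genes, Spib and Ikzf3 are transcription factors of the B cell lineage, and Ptprcap encodes a partner of the leukocyte protein CD45. Without the 2 arrays farthest from the median of that mean, WT DSS replicates 1 and 3, these 9 had r between 0.68 for Kcng3 and 0.86 for Ptprcap.

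H2-Oa, H2-Ob and H2-Eb2, further class II genes, followed the tested 6 on most arrays but not on all. On TG DSS replicate 2 all 3 were above 0, beside 2 of the 6. On WT water replicate 3, 2 of the 3 were above 0, beside 0 of the 6. They also parted from the 6 on WT DSS replicate 3. H2-Oa and H2-Ob encode the H2-O molecule, which restrains H2-DM in B cells. In WT DSS replicate 3 H2-Oa, H2-Ob and H2-Eb2 were at -0.05, -0.55 and -0.14, while H2-Ab1 was at 1.59 and H2-Aa at 0.93. In WT DSS replicate 1 they were at 0.82, 1.58 and 1.93, and in WT water replicate 1 at 0.36, 0.85 and 1.10. A probe set that carries the symbols of both H2-DMb1 and H2-DMb2, beta chains of H2-DM, was at 1.50, -0.22 and -0.14 in WT DSS replicates 1 to 3 and at 0.84, 0.05 and -0.94 in TG DSS replicates 1 to 3. WT DSS replicate 3 therefore had high H2-DMa, at 1.08, without a high value for this beta chain probe set.

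Markers of the cell types that make class II were measured on the same arrays. The B cell list, of which 13 of 14 genes were measured, had medians of 0.90, 0.25 and -0.51 in TG DSS replicates 1 to 3, -0.10, -0.55 and 0.55 in TG water replicates 1 to 3, 1.47, 0.00 and -0.78 in WT DSS replicates 1 to 3 and 0.15, -0.10 and 0.05 in WT water replicates 1 to 3. All 13 B cell genes were above 0 on TG DSS replicate 1, TG water replicate 3 and WT DSS replicate 1, and 0 of 13 on TG DSS replicate 3, TG water replicates 1 and 2 and WT DSS replicate 3. On WT DSS replicate 3 the lists thus parted fully, with all 6 class II genes above 0 and all 13 B cell genes below. They also differed on TG DSS replicate 2, with 2 of 6 and 11 of 13 above 0. On WT water replicate 3 these counts were 0 of 6 and 8 of 13. Ms4a1 and Cd79b, which encode CD20 and a chain of the B cell receptor, were at -1.44 and -1.56 there, against 1.57 and 1.61 in WT DSS replicate 1. In bulk RNA of this kind, fewer cells of a type and less RNA per cell cannot be told apart, and the share of the class II values that B cells account for was not tested.

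The macrophage and monocyte list, with 14 of 16 genes measured, had medians of 0.93, -0.24 and -0.16 in TG DSS replicates 1 to 3, -0.33, -0.38 and 0.12 in TG water replicates 1 to 3, 1.12, 2.21 and -0.14 in WT DSS replicates 1 to 3 and 0.20, 0.01 and -0.09 in WT water replicates 1 to 3. Its highest array, WT DSS replicate 2, had class II values near 0. Itgam, the integrin CD11b, was at 3.41 there and Cd68 at 3.34. On the same array the pan epithelial list of 12 genes had a median of -2.04, against -0.19 to 0.11 on the other 11 arrays, so the RNA labelled as epithelial was low in epithelial genes there. The dendritic cell list of 12 genes had array medians between -0.08 and 0.00 in TG DSS, -0.14 and 0.23 in TG water, -0.06 and 0.34 in WT DSS and -0.05 and 0.11 in WT water. In WT DSS replicate 3 the dendritic list was at -0.06 with 1 of 12 genes above 0. The T and NK cell list had a median of 0.13 there, with 10 of 15 genes above 0. Its cytotoxic genes Gzma, Gzmb and Nkg7 were at 2.48, 2.60 and 1.74. Other genes of that list did not share such values, with Klrb1c at -0.004, Ncr1 at 0.09 and Cd2 at -0.29. Because the values are centred per probe set, they cannot show whether any of these markers was absent from the samples.

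**Figure D4:**
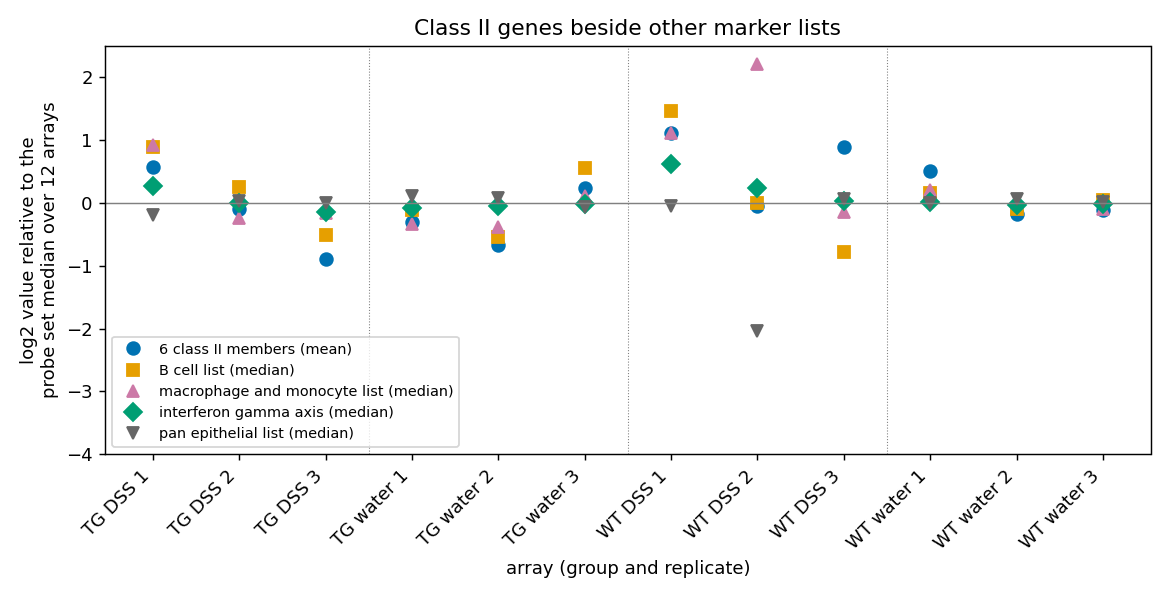
Mean log2 value of the 6 class II genes other than H2-Ea and the median log2 value of 4 marker lists on each array, relative to the probe set medians. In WT DSS replicate 3 the class II mean is at 0.89 while the B cell median is at -0.78, and in WT DSS replicate 2 the macrophage median is at 2.21 while the class II mean is at -0.05.

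Interferon gamma is the cytokine that induces class II. A list of its axis held the cytokine, its receptor chains and its signalling genes beside genes that answer it. The median of the list is therefore not that of the answering genes alone. Of the 22 genes on the list, 18 were measured. Their median was at 0.27, 0.00 and -0.14 in TG DSS replicates 1 to 3, -0.08, -0.05 and -0.01 in TG water replicates 1 to 3, 0.62, 0.23 and 0.03 in WT DSS replicates 1 to 3 and 0.02, -0.03 and -0.02 in WT water replicates 1 to 3. Cxcl9, a chemokine that attracts T cells, was at 2.37, -0.18 and -0.44 in TG DSS replicates 1 to 3 and at 4.32, 2.08 and 0.51 in WT DSS replicates 1 to 3. Ido1, a tryptophan-degrading enzyme, was at 0.59, -0.10 and -0.12 in TG DSS replicates 1 to 3 and at 2.44, -0.25 and 2.73 in WT DSS replicates 1 to 3. Ido1 was therefore high on the WT DSS arrays that had high class II, replicates 1 and 3, whereas Cxcl9 was lowest of the WT DSS arrays in replicate 3. Ido1 was named for its list and chosen after its values were seen.

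The effect of DSS was asked first in the transgenic mice. None of the 6 tested genes passed the threshold for TG DSS against TG water, which was an adjusted p under 0.05 in limma over all genes, and 0% of all genes passed it. At an unadjusted p under 0.05, 475 of all genes and 0 of the 6 were counted. The groups overlapped for all 6, while they did not overlap for 13.4% of all genes. The changes ran between -0.06 ± 0.57 for Cd74 and 0.43 ± 0.54 for H2-Ab1 on the log2 scale (± SE, n = 3 arrays in each group), and each had an adjusted p of 1.00 in limma. Their median was 0.06, beside -0.01 for all genes. TG DSS replicate 1 and replicate 3 pulled in opposite directions. Without replicate 1 the median was -0.26, and without replicate 3 it was 0.54. The mean difference of H2-Ea between TG DSS and TG water was -0.59, and it was -1.30 without TG DSS replicate 1 and 0.050 without TG DSS replicate 3.

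In the wild-type mice, all 6 genes averaged higher in WT DSS than in WT water and none passed, while 0.171% of all genes did. At an unadjusted p under 0.05 in limma, 3040 of all genes (15.2%) and 1 of the 6, H2-DMa, were counted. H2-DMa had the largest difference, 0.88 ± 0.29 (SE, 3 arrays per group, limma adjusted p = 0.202), and was the only 1 of the 6 whose arrays did not overlap between the groups, a pattern that 16.1% of all genes showed. H2-Aa differed by 0.73 ± 0.53 with an adjusted p of 0.551 in limma, Cd74 by 0.70 ± 0.57 with 0.597, H2-Ab1 by 0.68 ± 0.54 with 0.595, H2-Eb1 by 0.27 ± 0.50 with 0.852 and Ciita by 0.17 ± 0.22 with 0.765. The median of the 6 was 0.69, beside -0.04 for all genes, of which 40.6% averaged higher in WT DSS. It was 0.44, 1.06 and 0.47 without WT DSS replicate 1, 2 or 3. H2-Ea averaged 0.17 lower in WT DSS than in WT water, with a low array in both groups.

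Between the genotypes under DSS, all 6 genes averaged lower in TG DSS than in WT DSS and none passed, while 0.0401% of all genes did. An unadjusted p under 0.05 in limma was found for 3178 of all genes (15.9%) and 1 of the 6, H2-DMa. The differences were -1.16 ± 0.57 for Cd74 (SE, 3 arrays per group, limma adjusted p = 0.336), -0.998 ± 0.53 for H2-Aa (limma adjusted p = 0.367) and -1.003 ± 0.54 for H2-Ab1 (limma adjusted p = 0.378). H2-DMa differed by -0.77 ± 0.29, H2-Eb1 by -0.61 ± 0.50 and Ciita by -0.18 ± 0.22, with adjusted p between 0.243 and 0.736. The groups overlapped for all 6, while they did not overlap for 19% of all genes. The median of the 6 was -0.89, beside 0.04 for all genes, of which 57.9% averaged higher in TG DSS. Without TG DSS replicate 3 it was -0.46, and without WT DSS replicate 2, the array low in epithelial genes, it was -1.20. H2-Ea averaged 0.68 higher in TG DSS than in WT DSS, and without WT DSS replicate 3 its mean was 0.65 lower instead.

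On water, none of the 6 passed between TG water and WT water, where 0% of all genes passed, and 61 of all genes and 0 of the 6 had an unadjusted p under 0.05. The groups overlapped for all 6, while they did not overlap for 4.98% of all genes. H2-Ab1 had the largest difference, -0.75 ± 0.54. The others ran between -0.46 ± 0.50 for H2-Eb1 and 0.06 ± 0.29 for H2-DMa (SE, n = 3 arrays in each group). Each had an adjusted p of 1.00 in limma. The SE of a gene pools the spread of all 4 groups, so it includes that of the DSS arrays. In a fit of the TG water and WT water arrays alone, 423 of all genes had an unadjusted p under 0.05 and 0 passed. The median of the 6 was -0.38 and became -0.16 without WT water replicate 1, -0.052 without TG water replicate 2 and -0.65 without TG water replicate 3. The H2-Ea means differed by 1.10, TG water being higher. Without WT water replicate 1, TG water was lower by 0.28.

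**Figure D5:**
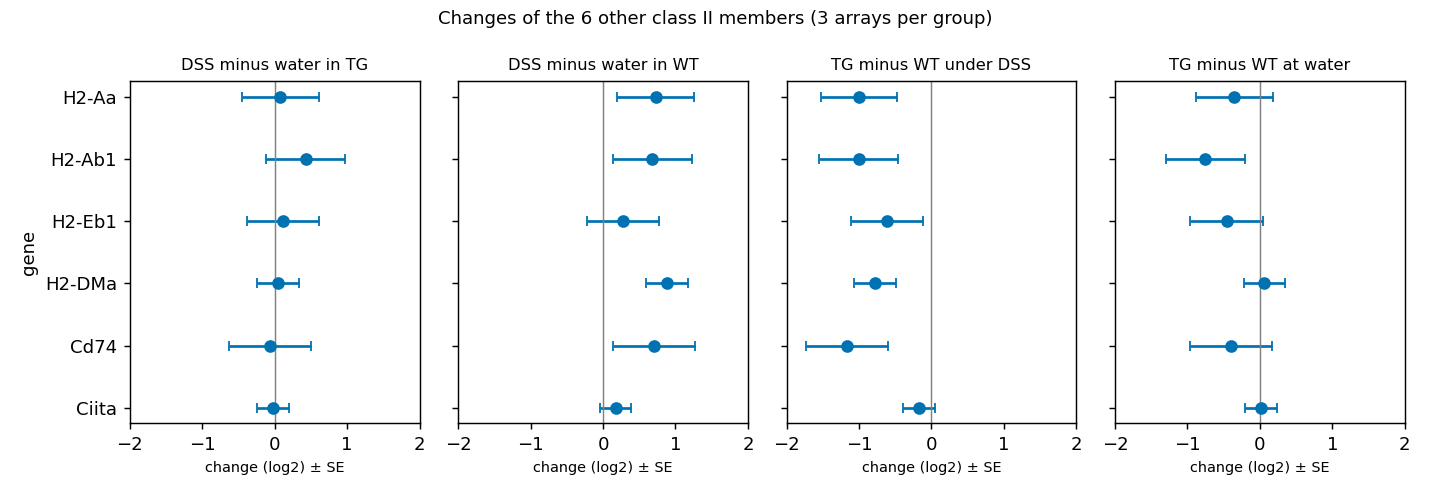
Change on the log2 scale (points) with its standard error (bars) of the 6 class II genes other than H2-Ea in 4 comparisons, 3 arrays per group. All 6 points lie above 0 for DSS in WT and below 0 for TG against WT under DSS, and no change passed an adjusted p under 0.05.

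The change with DSS was also compared between the genotypes as an interaction, and 0 of the 6 genes and 0% of all genes passed, with 1167 of all genes at an unadjusted p under 0.05. All 6 values were below 0, from -0.84 ± 0.41 for H2-DMa (limma adjusted p = 0.852) to -0.15 ± 0.70 for H2-Eb1 (limma adjusted p = 0.970). Of all genes, 52.2% had a value above 0. Because the 6 rose and fell together over the arrays, their shared sign is not 6 separate observations. The interaction shares groups with the comparisons above, since the TG DSS, WT DSS, TG water and WT water arrays each enter more than 1 of them.

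Around the class II genes, no gene of the pathway lists passed for DSS in WT or between genotypes under DSS. Lgmn, a lysosomal protease that trims class II peptides and the invariant chain, averaged 1.76 ± 0.34 higher in WT DSS than in WT water (limma adjusted p = 0.0684). Rfxank, a subunit of the complex that binds the X box, averaged 0.50 ± 0.09 lower (a change of -0.50, limma adjusted p = 0.0618), and its partner Rfx5 differed by 0.40 ± 0.12. Of the 12 genes of peptide supply and turnover, 9 were higher on average in WT DSS with a median of 0.16, and of the 11 genes of the class II transcription complex 7 were higher with a median of 0.03. Of all genes, 40.6% were higher. Of the 10 costimulation genes, 9 were higher, led by Cd274, the ligand PD-L1, at 1.19 ± 0.32. Of the 11 measured class I presentation genes 9 were higher, among them Tap1, the peptide transporter, at 0.79 ± 0.23 and B2m, the class I light chain, at 0.51 ± 0.10. The interferon gamma list had 13 of 18 genes higher, with Cxcl9 at 2.27 ± 0.91, Iigp1 at 2.26 ± 0.68 and Cxcl10 at 2.19 ± 0.80. The macrophage list had 13 of 14 higher with a median of 1.09, the B cell list 10 of 13 with 0.12, and the pan epithelial list 0 of 12 with -0.74. The T and NK cell list had 13 of 15 with 0.61 and the dendritic cell list 9 of 12 with 0.09. These differences did not rest evenly on the WT DSS arrays. In WT DSS replicates 1 to 3 the pan epithelial median was -0.05, -2.04 and 0.06, and the macrophage median was 1.12, 2.21 and -0.14.

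Between TG DSS and WT DSS the same lists mostly had the opposite sign, with the WT DSS arrays shared between these comparisons. Of all genes, 57.9% were higher in TG DSS. The costimulation list had 9 of 10 genes lower in TG DSS, with Cd274 at -1.10 ± 0.32. The interferon gamma list had 14 of 18 lower, with Cxcl10 at -1.86 ± 0.80, and the macrophage list 12 of 14 with a median of -0.91. The B cell list had 6 of 13 lower, and the pan epithelial list 0 of 12. B2m, at -0.53 ± 0.10, had the smallest adjusted p of these lists in limma, 0.0882. The part of macrophage content, epithelial content and WT DSS replicate 2 in these differences was not tested.

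Across all genes the WT DSS arrays stood farthest apart. Between 23 and 237 genes per array lay more than 1 log2 unit from their medians in TG DSS and 17 to 40 in TG water, against 496 to 3235 in WT DSS and 19 to 32 in WT water. Cldn2, the gene of the transgene, was between -0.24 and 0.27 in TG DSS and -0.02 and 0.36 in TG water, against -2.28 to -0.12 in WT DSS and -0.04 to 0.11 in WT water. Its probe set overlapped between TG water and WT water, and whether it reads the transgene was not tested. The labels do not say that the arrays of a group came from separate animals, so the p-values reflect array-to-array spread, which may be technical.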

How the data were processed

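The deposited values were made by the authors with RMA in Affymetrix Expression Console, per the submitters' processing notes. Their versions are not stated there. They were taken as log2, since the deposited table does not state its base, and the median of each of the 28815 probe sets over the 12 arrays was 0, so centring per probe set was found from the values. Absolute levels are lost, so no filter on dim probe sets was possible. Probe sets with 1 symbol (21780) were averaged per gene, which gave 19935 genes, while 1605 carried several symbols and 5430 none. RefSeq GRCm38.p6 gave positions and promoter sequences.

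The 12 arrays entered a single limma fit (version 3.58.1, R 4.3.3) that gave each group its own mean and left 8 residual degrees of freedom. Two-sided p-values were adjusted over all genes by the Benjamini-Hochberg method, and the threshold was 0.05. The pipeline was tested on simulated data drawn with the same spread per gene in all 4 groups. The wider spread of the WT DSS arrays was not part of that test. No permutation test was used, since 3 against 3 arrays cannot give a p below 0.1. The genes and lists were chosen with earlier results of these data known. Genes of each list were named by the size of their change or their array values, and genes of the H2 region after their values were seen. The deviations from the group means of arrays sharing a replicate number had r between -0.48 and 0.38. Arrays with different numbers were not compared, so these values cannot settle whether the numbers are pairs. The main fit did not take them as pairs. Alternatives were 6 other fits and leaving out each of the 12 arrays. The number of arrays limits the precision.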

Additional observations from a re-analysis of the deposited data

How the results depend on the processing

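None of the 6 tested genes passed in any comparison under any alternative fit or with any array left out, and their adjusted p in limma ran from 0.806 to 1.00 for DSS in TG, 0.120 to 0.981 for DSS in WT, 0.145 to 0.977 for TG against WT under DSS, stayed at 1.00 on water, and ran from 0.543 to 0.998 for the interaction. With the replicate block the median change of the 6 for DSS in WT was 0.69, and the block changed no call of these genes. H2-Ea minus the other 6 ran from -4.73 to -4.45 in WT DSS replicate 3 and from -4.23 to -3.98 in WT water replicate 1 under other centrings and with the median in place of the mean or a gene left out. Signs of single genes turned only with an array left out. For DSS in TG, H2-Eb1 ran from -0.26 to 0.50, Cd74 from -0.67 to 0.58, H2-Aa from -0.44 to 0.62, Ciita from -0.13 to 0.13 and H2-DMa from -0.26 to 0.36. For DSS in WT, H2-Eb1 ran from -0.11 to 0.70 and Ciita from -0.041 to 0.39. For TG against WT, Ciita ran from -0.39 to 0.038 under DSS and from -0.14 to 0.11 on water, and H2-DMa from -0.046 to 0.15 on water. For the interaction, H2-Ab1 ran from -0.80 to 0.070, H2-Eb1 from -0.58 to 0.23 and Ciita from -0.41 to 0.018. The mean change of H2-Ea with DSS in WT, not tested, ran from -1.56 to 1.16. Counts over all genes moved more. DSS in WT had 34 genes, but 0 with the replicate block, with 2 groups only and with weights per group, 2 with trend and robust moderation, 105 by probe set, 919, 92 and 575 without WT DSS replicate 1, 2 or 3, and 0 to 83 without any other array. TG against WT under DSS had 8 genes, but 0 with the block, with 2 groups only, with weights and with trend, 4 with each array centred, 1166, 16 and 164 without WT DSS replicate 1, 2 or 3, and 0 to 10 without any other array. The interaction had 0, but 239 and 6 without WT DSS replicate 1 or 3. The cause was not tested.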

Other observations

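Class I genes of the same region varied as well. A probe set that carries the symbols of H2-K1, H2-D1 and LOC547349 was at -0.08, 0.60 and 0.08 in TG DSS replicates 1 to 3, -0.18, -0.32 and -0.60 in TG water replicates 1 to 3, 0.74, 0.97 and 1.24 in WT DSS replicates 1 to 3 and 0.91, -0.22 and -0.60 in WT water replicates 1 to 3. WT water replicate 1 was thus apart from the other WT water arrays for this probe set. The other probe set with these symbols was at -0.01 there and between 0.31 and 0.61 in WT DSS. H2-K2, a class I gene at the edge of the region, was at 1.51 in WT DSS replicate 3 and 0.48 in WT water replicate 1.

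A list of 4 genes known to vary between common mouse strains, Glo1, Nnt, Ide and Fgfbp3, was set beside H2-Ea. In WT DSS replicate 3 and WT water replicate 1, Glo1 was at -1.01 and -0.79, its 2 lowest values. Nnt, a mitochondrial transhydrogenase, was at 0.12 and -0.05 on these arrays, Ide at 0.35 and -0.29, and Fgfbp3 at -0.09 and 0.14. On the other arrays Glo1 was between -0.27 and 0.21 in TG DSS, 0.12 and 0.23 in TG water, -0.60 and -0.42 in WT DSS and 0.16 and 0.27 in WT water. Over all arrays Nnt was between -0.28 and 0.05 in TG DSS, 0.05 and 0.50 in TG water, -0.47 and 0.12 in WT DSS and -0.05 and 0.47 in WT water.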
